A study of Arabidopsis thaliana with 16 samples.

Results

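WRKY transcription factor genes were taken as the protein-coding genes on chromosomes 1 to 5 whose symbol in the gene annotation is WRKY followed by a number, which gave 67 genes of 27444. The histone marks H3K4me3 and H3K27me3 had been mapped by ChIP-seq, the sequencing of DNA immunoprecipitated with a mark, in guard cells of Arabidopsis thaliana seedlings, 12 days post germination. Guard cells had been sorted from protoplasts of aerial tissue, per the labels. The genotypes were wild type (WT) and fama-1 carrying FAMAp:FAMA-LGK, called FAMA-LGK here. In the latter, FAMA, a basic helix-loop-helix factor needed for guard cell differentiation, was expressed from its own promoter in the LGK form, in which its motif for the retinoblastoma-related protein is altered. The series sets differentiated guard cells against reprogrammed ones.

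WRKY proteins bind DNA through a domain named after its conserved amino acids, followed by a zinc finger, and their usual target is the W-box. The family is divided into group I, with a pair of WRKY domains, groups IIa to IIe, with 1 domain, and group III, with 1 domain and another type of zinc finger. In leaves the family is best known for immune responses, salicylic acid and abscisic acid signalling, and senescence, and many members are switched on quickly by pathogens or wounding. H3K4me3 is found near the starts of transcribed genes. H3K27me3 is laid down by Polycomb repressive complex 2 and marks genes held silent.

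The values come from 4 peak lists, WT and FAMA-LGK for each mark, and each list stands for 2 ChIP libraries and 2 inputs together. No value per replicate was used, so no spread between replicates stands behind any difference, and no test between genotypes was made. A gene was called for a mark when peaks covered at least 150 bp of its body, and its covered length was the number of bp covered in the body plus 500 bp on each side. Pairs of values are given with WT first and FAMA-LGK second. The fold of a peak is the authors' enrichment of ChIP over control. Each list comes from a population of cells, so 2 marks called on 1 gene may lie in different cells, and fewer cells with a mark cannot be told apart from less of it per cell. Of 9 guard cell marker genes, among them KAT1, SLAC1 and MYB60, 9 were called for H3K4me3 in WT and 7 in FAMA-LGK. All 9 had shorter covered lengths in FAMA-LGK, with a median change of -1105 bp, while 4 of 5 stomatal lineage markers had longer ones (median change 519 bp). These 2 sets of markers moved with the genotype, and their part in the WRKY values below was not tested. FAMA itself had 2886 and 627 bp of H3K4me3, and the endogenous gene and the transgene cannot be told apart there. The trichome genes GL1 and GL2 were called for H3K27me3 in both genotypes, and GL2 also for H3K4me3 (959 and 1024 bp). Of the root and vascular genes, PLT1 and PLT2 had H3K27me3 alone in both genotypes. WOL was called for H3K4me3 in both and for H3K27me3 in WT alone.

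A larger share of WRKY genes than of protein-coding genes at large carried H3K27me3. For H3K4me3 the share was smaller at the minimum of 150 bp, and this direction turned when 50% of the gene body had to be covered. For H3K27me3, the calls held 40 of 67 WRKY genes in WT (59.7%) and 38 in FAMA-LGK (56.7%), where 24.4% of all genes were called in each genotype. For H3K4me3, the calls held 32 in WT (47.8%) and 34 in FAMA-LGK (50.7%), where 62.2% of all genes were called in each. In both genotypes, 38 were called for H3K27me3 and 30 for H3K4me3 (23.1 and 60.2% of all genes). H3K4me3 alone was found on 20 WRKY genes in WT and 21 in FAMA-LGK, against 57.3 and 57.7% of all genes. H3K27me3 alone was found on 28 and 25, against 19.5 and 19.9%, and neither mark on 7 and 8, against 18.3 and 17.9%. Both marks were called on 12 WRKY genes in WT and 13 in FAMA-LGK (17.9 and 19.4%), against 4.97 and 4.51% of all genes. The median body length was 2006 bp for the WRKY genes and 2078 bp for all genes. With 50% of the body required, H3K4me3 was called on 22 WRKY genes in WT (32.8%, against 24.3% of all genes) and 24 in FAMA-LGK (35.8%, against 25.2%). When the upper 50% of each list by −log10 q was used, H3K4me3 was called on 15 (22.4%, against 34.3%) and 14 (20.9%, against 34.0%). Both marks were then called on 2 (2.99%, against 0.397%) and 1 (1.49%, against 0.383%).

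**Figure D1:**
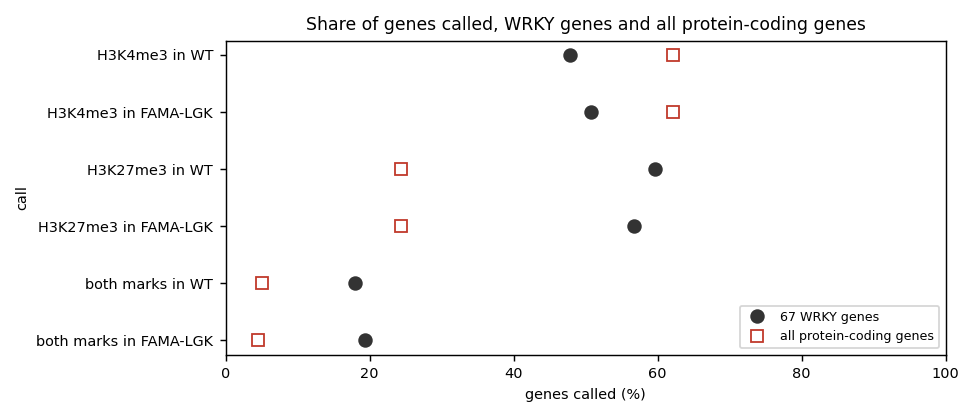
Percentage of genes called (x axis) for each mark and for both marks in each genotype (y axis), for the 67 WRKY genes (filled circles) and all 27444 protein-coding genes (open squares). The WRKY circles lie to the right of the squares for H3K27me3 (59.7 and 56.7% against 24.4%) and for both marks, and to the left for H3K4me3.

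The marks were spread unevenly over the groups of the family, which are small. Of all genes, 62.2% were called for H3K4me3 and 24.4% for H3K27me3 in each genotype. H3K4me3 alone was found on 57.3% (WT) and 57.7% (FAMA-LGK) of all genes. In group I, 8 of 10 genes were called for H3K4me3 alone in each genotype. Groups IIa and IId were of the same kind, with 3 of 3 and 6 of 7 genes called for H3K4me3 in both genotypes and 1 each for H3K27me3. Group IIc was the reverse: H3K27me3 was called on 15 and 14 of its 16 genes. No gene of this group had H3K4me3 alone. In group IIb, 7 of 8 genes were called for H3K27me3 in each genotype. Group IIe had 4 of 7 genes with H3K4me3, near the share of all genes, and 5 of 7 with H3K27me3 in each genotype. Group III had 7 of 12 with H3K27me3 in WT and 6 in FAMA-LGK, 3 with H3K4me3 in each, and 3 (WT) and 4 (FAMA-LGK) with neither mark. WRKY10, WRKY19, WRKY45 and WRKY49 were left without a group.

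**Figure D2:**
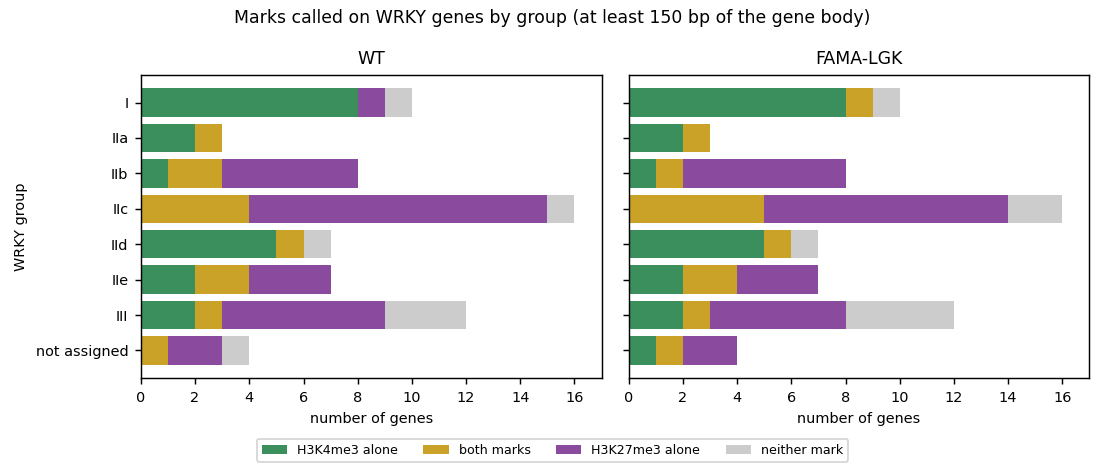
Number of WRKY genes (x axis) in each group of the family (y axis) by the marks called on them, in WT (left) and FAMA-LGK (right). Group I is mostly H3K4me3 alone (8 of 10), and group IIc holds no gene with H3K4me3 alone.

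Of the 67 genes, 59 had the same calls in both genotypes: 20 had H3K4me3 alone, 23 H3K27me3 alone, 10 both marks and 6 neither. Across all genes these 4 stable states held 55.7, 18.2, 3.43 and 16.3%.

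The 20 genes with H3K4me3 alone in both genotypes were WRKY2, WRKY3, WRKY4, WRKY6, WRKY7, WRKY11, WRKY15, WRKY18, WRKY20, WRKY21, WRKY22, WRKY25, WRKY26, WRKY32, WRKY33, WRKY39, WRKY46, WRKY53, WRKY60 and WRKY69. Their covered lengths ran from 733 to 3046 bp in WT (median 1682.5 bp) and from 858 to 3048 bp in FAMA-LGK (median 1768 bp). WRKY33, a substrate of the immune kinases MPK3 and MPK6 that drives camalexin synthesis, had the longest H3K4me3 of the family, with 3046 and 3048 bp. Its peak covered the whole gene body in both lists (WT peak at chromosome 2, 16108221 to 16111944, TAIR10, fold 7.34; FAMA-LGK fold 6.01) and also reached into the next gene. WRKY22, which acts downstream of the flagellin receptor, carried the strongest WRKY peak of both H3K4me3 lists, with folds of 7.51 and 7.09. In WT, 99.9% of the peaks in the list had a lower −log10 q than the WRKY22 peak (chromosome 4, 522347 to 524422). WRKY6, a factor of senescence and phosphate supply, had 2822 and 2811 bp, nearly the length of its 2926 bp body.

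Wide H3K4me3 coverage of the body was common in the family. Among called genes, the median share of the body covered in WT was 76.0% for WRKY genes and 42.4% for all genes. In FAMA-LGK the values were 61.4 and 43.5%. In WT, WRKY15, WRKY22, WRKY26 and WRKY33 were covered from end to end, 12.5% of the called members against 5.54% of all called genes. In FAMA-LGK these 4 and WRKY40, WRKY53 and WRKY75 were, 20.6% of the called members against 5.21%. WRKY26 lay in a WT peak of 4981 bp that touched 4 genes and ranked 14 by width among 16036 peaks, and its FAMA-LGK peak had 2790 bp. At the other end, WRKY60 was called from 233 bp (WT) and 358 bp (FAMA-LGK) of a peak whose summit lay outside its body.

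The 23 genes with H3K27me3 alone in both genotypes were WRKY8, WRKY9, WRKY10, WRKY12, WRKY13, WRKY14, WRKY24, WRKY29, WRKY31, WRKY35, WRKY36, WRKY38, WRKY49, WRKY51, WRKY54, WRKY55, WRKY56, WRKY59, WRKY61, WRKY68, WRKY70, WRKY71 and WRKY72. WRKY31 had the longest H3K27me3 of the family, with 4419 bp in each genotype, which is its whole body and both flanks. It lay in a domain of 19952 bp in WT (chromosome 4, 11686778 to 11706729, fold 7.19) and 22200 bp in FAMA-LGK (fold 7.38), each of which touched 4 genes. By width these domains ranked 8 of 7386 and 3 of 7652. WRKY35 lay in domains of 14246 and 14683 bp and WRKY59 in domains of 10077 and 10516 bp, each touching 3 genes. WRKY14 had 4080 bp in each genotype, its whole body and both flanks, within peaks of 8191 and 7631 bp. WRKY8, a gene of salt and virus responses, had 3535 and 3450 bp.

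WRKY12, which represses secondary walls in the pith, had 2500 and 2700 bp, and WRKY13, which acts on stem development and flowering, had 2399 and 2797 bp. The WRKY13 peaks were 2399 and 6188 bp wide, as the FAMA-LGK peak ran on beyond the flank. WRKY71, a gene of shoot branching and flowering, had 2442 bp in both, its whole body and both flanks, within peaks of 5696 and 8065 bp. WRKY10, known as MINI3 for its role in endosperm growth, had 2 WT peaks and 1 FAMA-LGK peak, with 2753 and 2741 bp, over 94.3 and 100% of its body. Over the called members, the median fold was 4.41 in WT and 4.81 in FAMA-LGK, where the medians of all peaks of those lists were 2.90 and 2.98. Of the called members, 21 of 40 (WT) and 20 of 38 (FAMA-LGK) had a peak in the highest 25% of its list by −log10 q. For H3K4me3, 9 of 32 and 10 of 34 did. A member's value here is that of its highest peak, while the lists hold all peaks, also those off genes. The same values were not computed for all called genes, so these figures do not set WRKY genes against other marked genes.

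Some relatives carried the same mark and some did not. WRKY14 and WRKY35 had H3K27me3 alone, and WRKY25, WRKY26 and WRKY33 had H3K4me3 alone. WRKY22 and WRKY29 act together downstream of flagellin perception, and WRKY29 had H3K27me3 over its whole body (2671 and 2543 bp) and no H3K4me3, unlike WRKY22. In group III, WRKY46 and WRKY53 had H3K4me3 alone and WRKY54 and WRKY70 had H3K27me3 alone. WRKY53, a regulator of leaf senescence, had 1449 and 1920 bp of H3K4me3, and WRKY46, a gene of salicylic acid and drought responses, had 1916 and 1988 bp. WRKY70, a node between salicylic acid and jasmonate signalling, had H3K27me3 of 2467 and 2174 bp, at weak peaks with folds of 2.61 and 2.22. In FAMA-LGK its peak also touched a neighbouring gene and had its summit outside the WRKY70 body. With a summit required inside the gene, the H3K27me3 call was left in WT alone at WRKY70. WRKY54, its close partner, had 2110 and 1987 bp at folds of 4.29 and 4.16. The neighbouring gene WRKY55 had separate H3K27me3 peaks, with 1489 and 1269 bp in all. WRKY6 had H3K4me3 alone, its relative WRKY31 H3K27me3 alone, and WRKY42, the other relative, differed between genotypes. WRKY11 had 1821 and 1784 bp of H3K4me3 and no H3K27me3, while its sister WRKY17 had both marks. These 2 genes are repressors of basal resistance.

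Both marks were called in both genotypes on 10 genes: WRKY17, WRKY23, WRKY27, WRKY40, WRKY45, WRKY47, WRKY48, WRKY57, WRKY65 and WRKY75. WRKY48, a stress-induced repressor of basal defence, was strongly covered by both. H3K4me3 covered 2189 and 2348 bp (folds 5.52 and 5.88), and H3K27me3 covered 3116 and 3098 bp (folds 6.21 and 8.03). The marks overlapped over 2185 and 2290 bp of the body, and no peak over a WRKY gene had a higher H3K27me3 fold in FAMA-LGK. This was the only WRKY gene called for both marks in FAMA-LGK from the upper 50% of each list by −log10 q. WRKY57, which raises drought tolerance, had H3K27me3 of 4338 and 4374 bp over most of its body and H3K4me3 of 1046 and 965 bp towards one end of it. WRKY23, an auxin-responsive gene of root and embryo patterning, had 2359 and 2411 bp of H3K27me3 and 1306 and 1365 bp of H3K4me3. WRKY65 had 1608 and 1651 bp of H3K27me3 and 795 and 1003 bp of H3K4me3.

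In WRKY40, WRKY17, WRKY27 and WRKY45 a short H3K27me3 peak lay inside a longer H3K4me3 peak. WRKY40, an abscisic acid and immune repressor, had H3K4me3 of 2242 and 2486 bp, and H3K27me3 of 887 and 1208 bp. The remaining group IIa genes had no H3K27me3: WRKY18 had H3K4me3 of 2367 and 2538 bp and WRKY60 of 733 and 858 bp. WRKY17 had 1610 and 1161 bp of H3K4me3 and 788 and 693 bp of H3K27me3. WRKY27, linked to bacterial wilt symptoms, had 1597 and 1455 bp of H3K4me3 and 550 and 540 bp of H3K27me3. WRKY45, a gene of phosphate starvation responses, had 1389 and 926 bp of H3K4me3 and 743 and 701 bp of H3K27me3, at the weak H3K27me3 folds of 1.77 and 1.73. WRKY47 was the exception among the 10, as its marks did not overlap: H3K4me3 (888 and 1044 bp) and H3K27me3 (1108 and 526 bp) lay in different parts of its 3751 bp body.

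Of the genes with both marks, 10 of 12 in WT and 12 of 13 in FAMA-LGK had bases covered by both. Across all genes with both marks, 86.6 and 84.9% did. The shorter of the 2 covered stretches lay wholly within the other in 5 of 12 and 10 of 13 members, against 56.4 and 54.5% of all such genes. The 2 WT genes without overlap were WRKY42 and WRKY47.

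**Figure D3:**
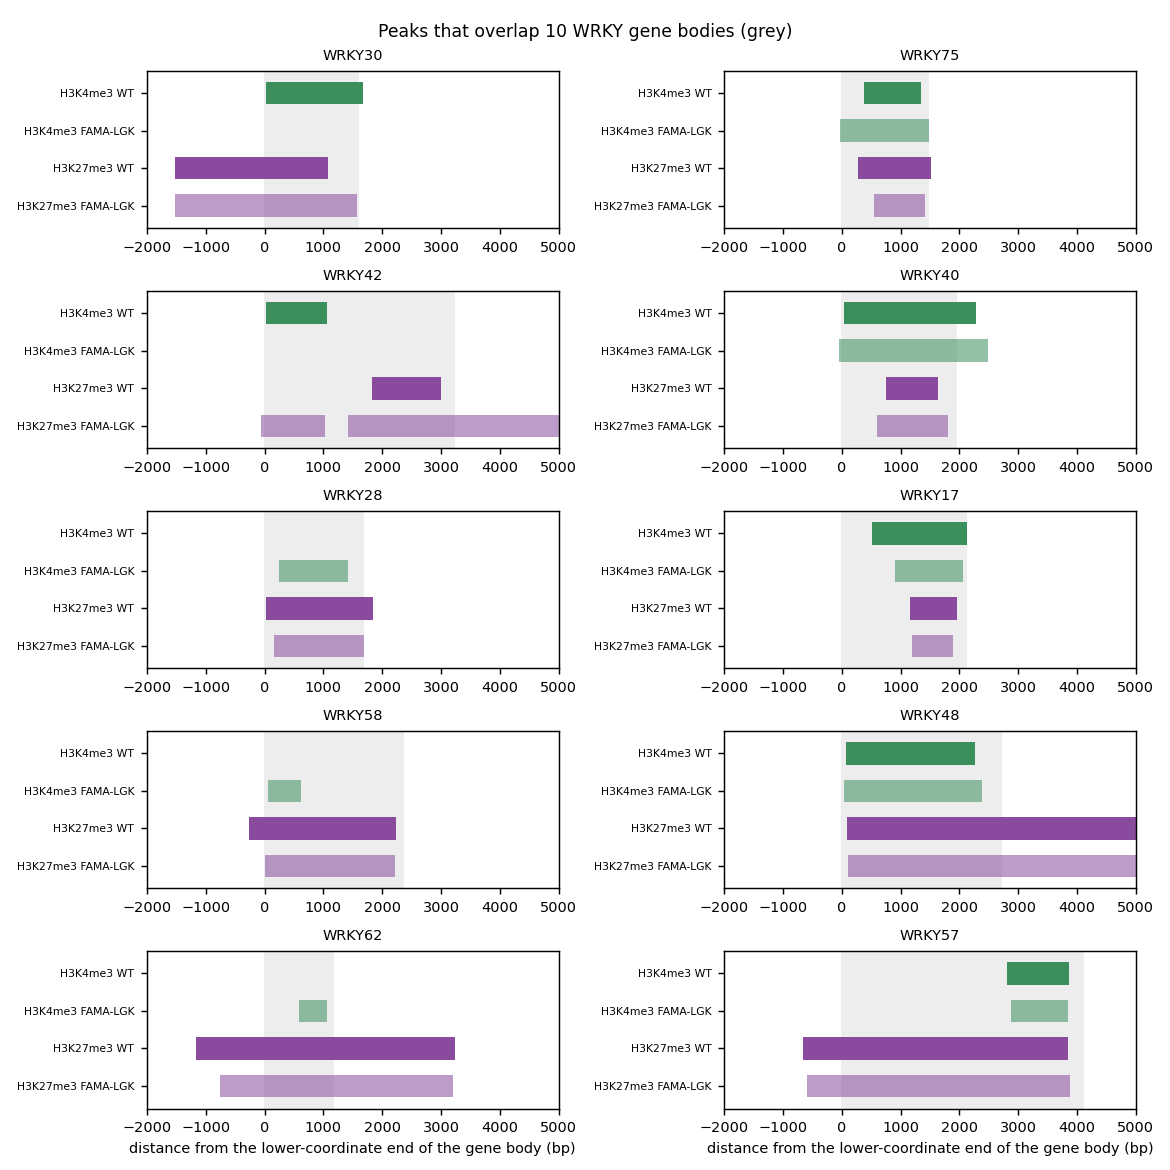
Peaks that overlap the bodies of 10 WRKY genes, as distance in bp from the lower-coordinate end of the gene body (x axis; grey, gene body; peaks are cut at the plot's edges). Rows show H3K4me3 (green) and H3K27me3 (purple) in WT (dark) and FAMA-LGK (pale). H3K4me3 is listed in WT alone on WRKY30 and WRKY42, and in FAMA-LGK alone on WRKY28, WRKY58 and WRKY62.

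The H3K4me3 comparison asked which genes carry the mark in 1 genotype alone. WRKY30 and WRKY42 were called in WT alone, and WRKY19, WRKY28, WRKY58 and WRKY62 in FAMA-LGK alone. These are 2.99 and 5.97% of the family, where 2.03 and 1.99% of all genes were called in WT alone and FAMA-LGK alone. Counts as small as 2 and 4 do not set the family apart.

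WRKY30, an early-induced gene of defence and oxidative stress, had H3K4me3 of 1665 and 0 bp. The WT peak (chromosome 5, 8153132 to 8154796, fold 3.41) covered 98.9% of the body, and the nearest H3K4me3 peak in FAMA-LGK lay 4046 bp away. Its H3K27me3 was 1586 and 2070 bp, over 68.0 and 98.4% of the body (folds 2.28 and 2.61). WRKY42, which with WRKY6 represses the phosphate exporter gene PHO1, had H3K4me3 of 1024 and 0 bp, with a WT peak at chromosome 4, 2218073 to 2219096 (fold 2.61). Its H3K27me3 was 1178 and 3383 bp, the largest difference in covered length of either mark in the family. In FAMA-LGK a second H3K27me3 peak (chromosome 4, 2217987 to 2219067, fold 2.79) lay almost where the WT H3K4me3 peak had been. Thus both genes listed with H3K4me3 in WT alone had longer H3K27me3 in FAMA-LGK and were called for it in both genotypes. Both marks in WT and H3K27me3 alone in FAMA-LGK were found at 220 of all genes (0.802%). At WRKY30 the summit of the H3K27me3 peak lay inside the body in WT and outside it in FAMA-LGK. With a summit required inside the gene, its H3K27me3 call was left in WT alone.

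WRKY28, an activator of salicylic acid synthesis, had H3K4me3 of 0 and 1167 bp, at chromosome 4, 10061463 to 10062629 (fold 2.38). Its H3K27me3 was called in both genotypes, with 1823 and 1538 bp (folds 4.92 and 5.48), and the FAMA-LGK H3K4me3 peak lay entirely inside it. WRKY58, a negative regulator of systemic resistance, had H3K4me3 of 0 and 570 bp (chromosome 3, 25412 to 25981, fold 2.22) and H3K27me3 of 2883 and 2523 bp. WRKY62, which with WRKY38 represses basal defence, had H3K4me3 of 0 and 477 bp (chromosome 5, 351504 to 351980, fold 1.87), the weakest FAMA-LGK H3K4me3 peak on a WRKY gene. Its H3K27me3 was 2171 bp in both genotypes, its whole body and both flanks, within peaks of 4388 and 3959 bp. WRKY38 had 2380 and 2536 bp of H3K27me3 and no H3K4me3. These 3 genes thus had H3K27me3 alone in WT and both marks in FAMA-LGK, a pattern found at 182 of all genes (0.663%). In the FAMA-LGK list, 10.1, 8.1 and 1.7% of the peaks had a lower −log10 q than those of WRKY28, WRKY58 and WRKY62.

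WRKY19, which encodes a WRKY domain joined to receptor-like and kinase parts, was of another kind. Its FAMA-LGK peak (chromosome 4, 7200456 to 7202269, fold 4.63) touched 2 genes and had its summit outside the WRKY19 body. In WT the nearest peak ended 37 bp from the body, and the covered length with flanks was 463 and 1248 bp. The call in FAMA-LGK alone was lost with flanks included or with a summit required inside the gene. The peaks behind all 6 H3K4me3 differences stood in the lower part of their lists by −log10 q, and none of these calls was left when the upper 50% alone was used. With 50% of the body required, the calls of WRKY19, WRKY42, WRKY58 and WRKY62 were lost, and those of WRKY28 and WRKY30 were kept.

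The H3K27me3 comparison asked the same of the Polycomb mark, and it differed at 2 genes. WRKY43 and WRKY66 were called in WT alone (2.99% of the family, against 1.39% of all genes), and no WRKY gene was called in FAMA-LGK alone, where 1.37% of all genes were. WRKY43, a gene of seed germination and the smallest of the family with a body of 714 bp, had H3K27me3 of 1109 and 0 bp (chromosome 2, 18957317 to 18958441, fold 2.14). Its H3K4me3 was 613 and 416 bp, from a peak next to the gene that covered 113 bp of the body in WT, just under the minimum for a call. WRKY66 had H3K27me3 of 739 and 0 bp and no H3K4me3. Its body was covered by a WT peak of 661 bp at chromosome 1, 30296151 to 30296811 (fold 1.67), and the rest of its covered length lay in the flank, under another peak. Of the WT H3K27me3 peaks, 22.2% had a lower −log10 q than the WRKY43 peak and 1.3% than the WRKY66 peak. Neither difference was left when the upper 50% of each list by −log10 q was used, and that of WRKY66 also needed the peaks with a −log10 q under 5.

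**Figure D4:**
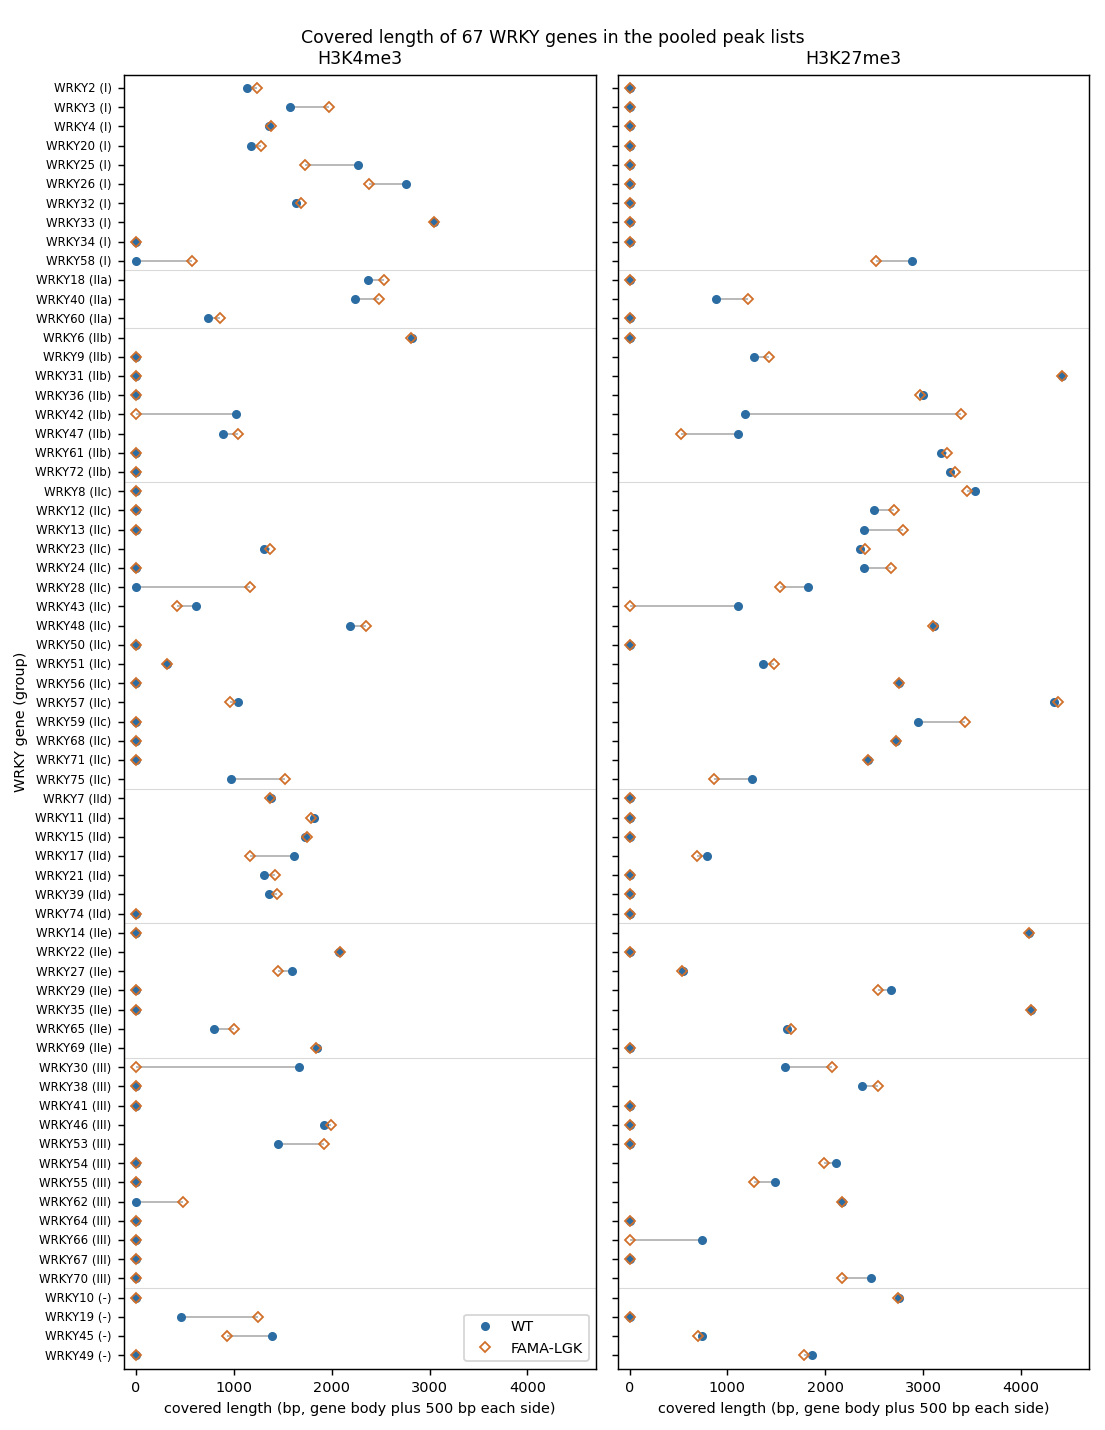
Covered length in bp (x axis) of H3K4me3 (left) and H3K27me3 (right) at each of the 67 WRKY genes (y axis, group in brackets) in WT (filled circles) and FAMA-LGK (open diamonds). Most pairs lie close together; WRKY30 and WRKY42 have no H3K4me3 in FAMA-LGK, and WRKY42 has 3383 bp of H3K27me3 there against 1178 bp in WT.

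In covered length, most WRKY genes differed by less than 200 bp between genotypes for each mark. H3K4me3 was longer in FAMA-LGK at 24 genes, shorter at 14 and equal at 29, which is 35.8, 20.9 and 43.3% of the family, against 39.0, 30.9 and 30.1% of all genes. The members of equal length all had 0 bp of H3K4me3 in both genotypes. Genes not called for H3K4me3 made up a larger part of the family than of all genes. Over the 30 members called in both genotypes the median change was 52.5 bp, against 17 bp over all such genes. The median size of the change, whatever its direction, was 113 bp for these members and 77 bp for all such genes. The difference was at least 500 bp at 7 members (10.4%, against 6.15% of all genes): WRKY28, WRKY19, WRKY58 and WRKY75 were longer in FAMA-LGK, and WRKY30, WRKY42 and WRKY25 shorter. At least 200 bp separated the genotypes at 15 members (22.4%, against 15.7% of all genes).

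Members called for H3K4me3 in both genotypes with the largest positive differences, FAMA-LGK minus WT, were WRKY75, WRKY53, WRKY3, WRKY40, WRKY65 and WRKY18. Most of the difference lay in the flanks at WRKY53 (1449 and 1613 bp of the body covered) and WRKY40 (1901 and 1939 bp). At WRKY75, WRKY3, WRKY65 and WRKY18 it lay mostly in the body. WRKY75, a gene of phosphate starvation, root hairs and senescence, had 974 and 1524 bp (folds 1.91 and 2.57), and its H3K27me3 was 1255 and 867 bp. WRKY3, which acts with WRKY4 against necrotrophic fungi, had 1575 and 1967 bp, while WRKY4 had 1357 and 1378 bp. Of group I, the heat stress genes WRKY25 and WRKY26 were shorter in FAMA-LGK, with 2267 and 1726 bp and with 2760 and 2382 bp. Most of the WRKY25 difference lay in the flanks, as 1767 and 1698 bp of its body were covered. The whole WRKY26 difference did, as its 1760 bp body was covered from end to end in both genotypes. WRKY33, which acts with WRKY25 and WRKY26 in heat, differed by 2 bp. Among genes called in both, WRKY45, WRKY17, WRKY27, WRKY57 and WRKY11 had differences of -463, -449, -142, -81 and -37 bp.

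H3K27me3 was longer in FAMA-LGK at 15 genes, shorter at 18 and equal at 34 (22.4, 26.9 and 50.7%, against 14.1, 15.3 and 70.5% of all genes). Covered length cannot exceed the body plus both flanks. Of the genes of equal length, WRKY14, WRKY31, WRKY35, WRKY56, WRKY62, WRKY68 and WRKY71 were at this limit in both genotypes. Their peaks could still differ in width, as at WRKY71 (5696 and 8065 bp). The remaining genes of equal length had no H3K27me3. The median change was 0 bp over the 38 members called in both genotypes and over all such genes. The difference was at least 200 bp at 15 members (22.4%, against 9.93% of all genes) and at least 500 bp at 4 (5.97%, against 4.06%). All these shares take in genes without the mark, which made up a smaller part of the family than of all genes. Over genes called in both genotypes, the median size of the difference was 90.5 bp for WRKY genes and 91 bp for all genes. After WRKY42 and WRKY30, the largest positive differences were at WRKY59 (2953 and 3424 bp), WRKY13 and WRKY40. After WRKY43 and WRKY66, the largest negative differences were at WRKY47, WRKY75 and WRKY58, with -582, -388 and -360 bp.

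At 16 members both lengths differed between genotypes. H3K4me3 was longer and H3K27me3 shorter in FAMA-LGK at WRKY28, WRKY47, WRKY48, WRKY58 and WRKY75 (7.46% of the family, against 5.16% of all genes). H3K4me3 was shorter and H3K27me3 longer at WRKY30, WRKY42, WRKY51 and WRKY57 (5.97%, against 3.92%). Both were longer at WRKY23, WRKY40 and WRKY65 (4.48%, against 2.99%) and both shorter at WRKY17, WRKY27, WRKY43 and WRKY45 (5.97%, against 3.05%). Opposite and like directions were thus found at 9 and 7 genes. Any difference above 0 bp counted here, also at genes not called for a mark. WRKY43 and WRKY51 were not called for H3K4me3 in either genotype. The H3K4me3 lengths of WRKY51 were 321 and 319 bp, all in the flanks. At WRKY48 the H3K27me3 difference was -18 bp.

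**Figure D5:**
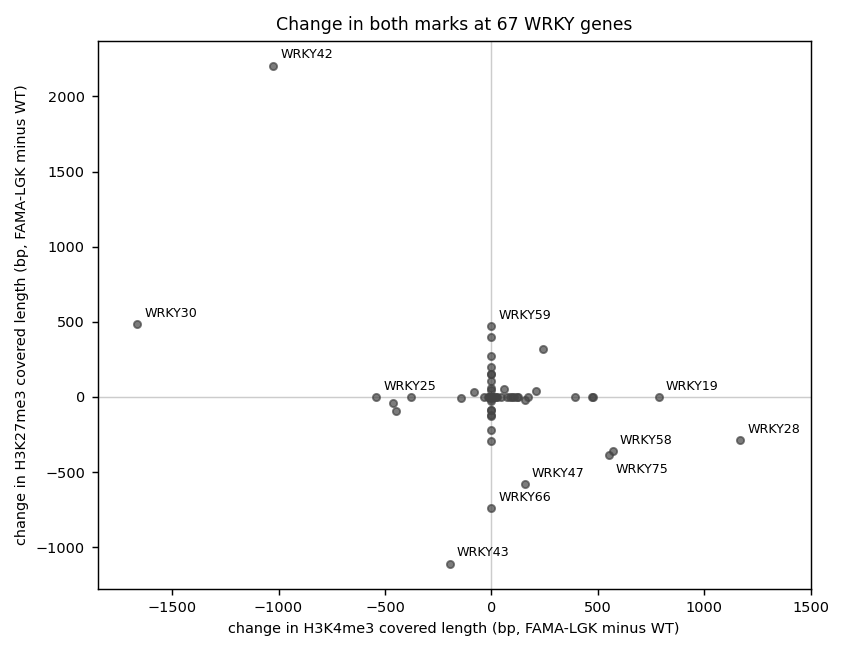
Change in H3K27me3 covered length (y axis, bp, FAMA-LGK minus WT) against change in H3K4me3 covered length (x axis, bp, FAMA-LGK minus WT) for the 67 WRKY genes, with the larger changes named. WRKY42 (-1024 and 2205 bp) and WRKY30 (-1665 and 484 bp) lie at the upper left, and WRKY28 (1167 and -285 bp) at the lower right.

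Neither mark was called in either genotype on WRKY34, WRKY41, WRKY50, WRKY64, WRKY67 and WRKY74, and all 6 had covered lengths of 0 bp in all 4 lists. WRKY34 is a pollen gene and WRKY41 acts in seed dormancy, while WRKY50 acts with WRKY51 where salicylic acid represses jasmonate responses. WRKY51 had H3K27me3 of 1365 and 1472 bp. Left out by the rule on symbols were 5 genes with WRKY among their other names, ABO3, ZAP1, TTG2, TTR1 and RRS1, none of them called for H3K27me3. ABO3 (WRKY63), an abscisic acid response gene, had H3K4me3 of 0 and 732 bp. TTG2 (WRKY44), a trichome and seed coat gene, had 671 and 0 bp.

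Genes that act around the WRKY factors in immune signalling were read from a list of 31. Of these, 22 (71.0%) were called for H3K4me3 in WT and 25 (80.6%) in FAMA-LGK, against 62.2% of all genes in each. For H3K27me3 the calls were 9 and 8 (29.0 and 25.8%), near the 24.4% of all genes. Covered lengths of H3K4me3 were longer in FAMA-LGK at 20 genes, shorter at 7 and equal at 4 (64.5, 22.6 and 12.9%, against 39.0, 30.9 and 30.1% of all genes). Any difference above 0 bp counted, and CYP71A13, FRK1 and FMO1 were longer by 3, 14 and 14 bp. CYP71A13 and FRK1 were not called for H3K4me3 in either genotype. The shares also take in genes without the mark, which made up a smaller part of this list than of all genes. Over the 22 called in both genotypes the median change was 63.5 bp, against 17 bp over all such genes. The receptor genes FLS2, EFR, BAK1 and CERK1, the kinase genes MEKK1, MPK3 and MPK6 and the regulators EDS1 and NPR1 had H3K4me3 in both genotypes and were not called for H3K27me3. Among targets of the pathway, PR1, PR2, PAD3 and CYP71A13 were called for H3K27me3 alone in both genotypes, with covered lengths in WT of 1680, 1344, 1058 and 2533 bp. PR5 was called for both marks in both genotypes, with 672 and 793 bp of H3K4me3, and FRK1 for neither.

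No gene of the list was called for H3K4me3 in WT alone, and PAD4, NHL10 and FMO1 were called in FAMA-LGK alone. These are 0 and 3 of 31 genes, where 2.03 and 1.99% of all genes were called so. PAD4, a partner of EDS1 in salicylic acid signalling, had 0 and 651 bp. NHL10, a gene induced early in immunity, had 0 and 783 bp, and its H3K27me3 was 2048 and 1610 bp. FMO1, of systemic acquired resistance, was called on 150 bp of its body in FAMA-LGK against 136 bp in WT, so its difference rests on 14 bp at the threshold. CBP60g, an activator of salicylic acid synthesis, had the largest positive difference, with 810 and 1801 bp of H3K4me3, and was called for H3K27me3 in WT alone (563 and 0 bp). The largest negative differences were at SIB1, MPK4 and MKK5, with -359, -188 and -140 bp. SIB1 encodes a partner protein of WRKY33.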

How the data were processed

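The data were 4 deposited peak lists of H3K4me3 and H3K27me3 in WT and FAMA-LGK guard cells, each standing for 2 ChIP libraries and 2 inputs, per the labels. The submitters' processing notes list TAIR10 as the build and CASAVA 1.8.2, Bowtie2 and MACS2 as tools, with no roles. How replicates were combined, and the peak threshold, were not given in the sources used here. Each deposited peak has a score (not used), the authors' fold (a ratio of ChIP over control), a −log10 p-value (not used), a −log10 q-value and a summit, used only within its list. The lists held 16036 (WT) and 15989 (FAMA-LGK) H3K4me3 peaks and 7386 and 7652 H3K27me3 peaks; they give no read counts, so the depth is unknown. Peak numbers in the names run higher (to 16553, 16491, 9094 and 9096), so a gene without a listed peak may have had one that is not listed.

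Gene bodies and symbols came from the RefSeq table of TAIR10.1, which gives no strand. Its fit to the peaks was checked: in 20 chromosome segments 92.1 to 98.2% of WT H3K4me3 summits lay in genes, and no shift of up to 3000 bp raised this by more than 0.165 percentage points. Printed positions are 1-based and come from the peak lists. Coverage was computed in Python 3.11.15 with numpy 2.4.6 and pandas 2.3.3 and tested on simulated data. Groups were to be read from protein sequences; no sequence was used here, so group membership is from general knowledge, and promoter motifs were not analysed. Members and lists were chosen with earlier results of these data known. Named by rule were members called in 1 genotype alone, for both marks or in no list, the 10 largest positive and negative differences in H3K4me3 length, the 5 in H3K27me3 length, and the 5 longest of each mark in WT. WRKY4, WRKY10, WRKY12, WRKY22, WRKY29, WRKY38, WRKY46, WRKY51, WRKY54, WRKY55, WRKY60, WRKY70 and WRKY71, and the partner genes with the same calls in both genotypes, fall outside it and were chosen after their values were seen. Alternatives were other minimum coverages, peak thresholds, windows and a summit inside the gene.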

Additional observations from a re-analysis of the deposited data

How the results depend on the processing

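Of 86 recomputed counts of WRKY genes, 70 stayed within 1.5 times the reported count and 16 did not. When the upper 50% of each list by −log10 q was used, H3K4me3 calls were 15 (WT) and 14 (FAMA-LGK), with 2 in FAMA-LGK alone; each genotype alone had 1 H3K27me3 call (1 and 1); both marks were called on 2 and 1 genes; H3K4me3 was longer at 12 and shorter at 8 genes, and H3K27me3 shorter at 9. That setting leaves fewer peaks by construction. With 50% of the body required, H3K4me3 was called in WT alone on 1 gene, H3K27me3 in FAMA-LGK alone on 2, and both marks on 4 (WT) and 6 (FAMA-LGK). H3K27me3 in WT alone was called on 1 gene at a −log10 q of at least 5, as the WRKY66 peak fell below it. It was called on 4 with a summit inside the gene, as the FAMA-LGK summits at WRKY30 and WRKY70 lay outside the body. Of 56 recomputed differences of the 8 genes called in 1 genotype alone, 41 were kept, 15 were lost and 0 turned direction. The minimum for a call and the summit rule do not enter covered lengths, so lengths were not recomputed under them. No replicate could be left out, because each list is pooled. No paired analysis was possible because each list combines its replicates.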
